A study of Mus musculus with 83 samples.

Results

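The genes described here encode the TBP-associated factors (TAFs) and factors whose symbols begin with Gtf2, most of them general transcription factors. Gtf2i, Gtf2ird1 and Gtf2ird2 belong to the TFII-I family and are called general factor genes here by their symbols alone. They were taken as every row of the Pol II count tables whose symbol is Taf plus a number and an optional letter, or Gtf2 followed by a, b, e, f, h or i, leaving out Taf1d and Gtf2f1. The rule found 37 genes of 27752 in the C64 tables and of 55367 in the B8 tables. What was measured for each gene is Pol II occupancy by CUT&Tag, in which an antibody to Rpb1, the largest Pol II subunit, tethers a transposase that cuts and tags the DNA beneath it, so that read pairs over a gene count the polymerase there and not its RNA or protein.

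The study asked whether Pol II transcription in mouse embryonic stem cells needs TBP, the TATA-box binding protein. All cells, controls included, were male ES cells in which both copies of Tbp carry an auxin-inducible degron, and adding IAA, an auxin, leads to destruction of the tagged TBP. The series holds 83 CUT&Tag samples, of which 24 Pol II libraries in 12 groups of 2 have gene counts. Nothing in the labels says whether the libraries of a group came from separate cultures, so each p-value measures only the spread between these libraries.

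In C64 cells, the degron line, run 2 compared 500 µM IAA for 6 h with an untreated control, and heat shock (30 min at 42 °C) with IAA, added 6 h earlier, or without it. Run 3 compared 500 µM IAA for 16 h with a control, and retinoic acid for 16 h with IAA or without it. The labels give retinoic acid at 25 µM, while the study's methods give a lower concentration. B8 cells are a C64 derivative with Tbpl1, the gene of the TBP relative TRF2, wholly deleted, and the line was grown from a single colony. In B8, runs 6 and 8 each compared IAA for 6 h with a control. The labels call the controls untreated and the methods give them the solvent DMSO. C64 also carries a HaloTag on Rpb1, and the cells grew on gelatin without feeder cells. Columns of runs 2 and 8 are not tied to replicate numbers, so their libraries are called a and b here, and those of runs 3 and 6 replicate 1 and 2.

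As background, transcription by Pol II starts once general factors assemble with the polymerase on a promoter. TFIID, which is TBP with its TAFs, binds first, TFIIA steadies it, TFIIB links it to Pol II, TFIIF comes with the polymerase, and TFIIE and TFIIH arrive last, TFIIH opening the DNA and phosphorylating the polymerase tail. Some TAFs also belong to SAGA, a coactivator that modifies histones and holds no TBP, and others to SL1, the TBP-containing selectivity factor of Pol I. Several TAFs and one TFIIA subunit have paralogs best known from germ cells and differentiated cells.

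Promoters of these genes were read from RefSeq on GRCm38.p6, as 300-base windows. Each runs from 250 bases before a RefSeq start to 50 after it, taking the start nearest that of the counted gene. A window was matched for 33 of the 37 members. The 4 shown belong to genes on which the results below turn: Taf9b, lower in heat shock, Gtf2ird1, lower after IAA in B8, Taf5, which had the largest difference toward higher in heat shock with IAA, and Taf13, the only 1 of these windows with a TATA box near the start. Capitals mark the TATA box motif TATAAA and the GC box motif GGGCGG. They also mark GAANNTTC, a part of the heat shock element in which N is any base. A motif on the other strand appears as its reverse complement.
Taf9b: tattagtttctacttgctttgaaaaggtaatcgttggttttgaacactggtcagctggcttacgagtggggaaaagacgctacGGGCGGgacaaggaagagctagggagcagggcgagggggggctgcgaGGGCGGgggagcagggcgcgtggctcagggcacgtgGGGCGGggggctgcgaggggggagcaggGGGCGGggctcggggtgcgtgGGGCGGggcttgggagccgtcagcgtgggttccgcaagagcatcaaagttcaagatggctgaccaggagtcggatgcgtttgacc
Gtf2ird1: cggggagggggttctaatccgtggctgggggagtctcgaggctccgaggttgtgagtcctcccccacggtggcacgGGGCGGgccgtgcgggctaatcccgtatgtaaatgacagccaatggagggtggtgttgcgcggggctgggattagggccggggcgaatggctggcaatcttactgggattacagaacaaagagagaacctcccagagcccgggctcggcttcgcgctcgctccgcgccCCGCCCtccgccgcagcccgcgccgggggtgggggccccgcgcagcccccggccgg
Taf5: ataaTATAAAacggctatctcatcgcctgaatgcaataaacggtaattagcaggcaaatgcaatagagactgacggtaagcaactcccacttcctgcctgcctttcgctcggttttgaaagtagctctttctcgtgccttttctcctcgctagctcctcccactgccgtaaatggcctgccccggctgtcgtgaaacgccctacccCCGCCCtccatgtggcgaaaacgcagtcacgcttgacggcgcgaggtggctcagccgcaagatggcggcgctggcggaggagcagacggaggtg
Taf13: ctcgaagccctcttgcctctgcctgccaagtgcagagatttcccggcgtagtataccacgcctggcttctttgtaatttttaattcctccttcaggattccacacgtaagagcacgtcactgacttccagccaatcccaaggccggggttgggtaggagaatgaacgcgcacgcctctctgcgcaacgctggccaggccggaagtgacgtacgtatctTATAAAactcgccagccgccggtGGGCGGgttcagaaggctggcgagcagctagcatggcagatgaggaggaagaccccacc
The Taf9b window lies at chrX:106221109-106221408 on the minus strand and holds 5 GC boxes. The Gtf2ird1 window lies at chr5:134456667-134456966 on the minus strand, holds 2 GC boxes and is 70.3% G and C. The Taf5 window, at chr19:47067498-47067797 on the plus strand, has a TATAAA whose first base is at -246 from the start, and the Taf13 window, at chr3:108571449-108571748 on the plus strand, has one at -32.

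Over both strands, TATAAA occurred in 4 of the 33 member windows (12.1%), in Taf13, Taf7l, Gtf2a2 and Taf5, against 13.6% of all 32851 RefSeq windows of that length. GGGCGG occurred in 23 (69.7%), against 35.7% of all windows. GAANNTTC occurred in 4 (12.1%), those of Taf1c, Gtf2h2, Taf9 and Gtf2e1, against 7.86% of all windows. The list of TATA-containing genes deposited with the series named 7 of the 37 members (18.9%), against 18.5% of all genes in the tables: Taf13, Gtf2b, Gtf2h5, Taf8, Gtf2a1l, Taf4b and Taf6l. Of the 6 with a matched window, TATAAA was found in 1, Taf13. The RefSeq starts of Gtf2b, Taf6l and Gtf2h5 lay 202, 101 and 42 bases from the starts of the counted genes. A motif near another start of these genes could be missed.

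Each C64 library held 3854622 to 5056322 reads assigned to genes, each B8 library of run 8 2330887 to 2523832, and each B8 library of run 6 900651 to 1157308. Replicate 2 of the B8 control of run 6 stood apart, with correlations of 0.882 to 0.909 to the other B8 controls, against 0.947 to 0.978 among those, and values that rest on it are given below with and without it. Tbpl1 had 0 to 4.34 CPM (counts per 1e6 assigned reads, scaled by TMM) in B8 and 6.18 to 15.8 in C64, on the side the deletion calls for. Tbp had at most 50.8 CPM and was counted in all libraries, and since IAA removes the protein and not the gene, this checks no label. Of the 7 ES cell markers, 6 were counted, and Sox2 stood at 0 in every library, as did the neuroectoderm marker Sox1. The cause was not tested, and these zeros are not taken as absence of Pol II. The ES cell markers summed to 409 to 2379 CPM, against 37.5 to 148 for 5 feeder fibroblast markers, without division by gene length. Most of the ES cell sum lay in Esrrb and Tfcp2l1, with medians of 757 and 495 CPM, and the sums given below mostly follow these genes. Pou5f1, Nanog and Dppa5a had medians of 10.9, 9.86 and 3.83 CPM, below the feeder markers Pdgfrb at 25.1 and Col1a1 at 17.0 CPM. Fewer cells of a type and less Pol II per cell cannot be told apart in these libraries.

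Of the 37 genes, 34 had reads in at least 1 library, and 21 had 20 reads or more in all 24. The other 3, Taf5l, Taf9 and Taf7, were at 0 in all 24 libraries. Taf5l, a SAGA subunit, lies wholly inside Galnt2l on the opposite strand, a gene counted at 2645 to 12401 reads a library. Taf9, a TFIID and SAGA subunit, lies inside Ak6, counted at 19 to 205 reads. Taf7, which binds TAF1 in TFIID, lies under annotations on the opposite strand. Reads shared by overlapping genes were not counted, so these zeros say nothing of Pol II on the 3 genes. Overlap also covered 71.1% of Taf10, which shares its locus with Ilk, 20.5% of Taf6, 14.1% of Taf1c, 12.5% of Gtf2e2 and 12.4% of Taf11. Strand was not used in the counting, so reads over any member cannot be assigned to one strand.

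Per kb of the length that was counted, Taf15 led with a mean of 7.45 CPM per kb over the 24 libraries. Taf15 encodes an RNA-binding protein of the FET family. Below it stood Taf10 at 4.66, Gtf2e2 at 4.54, Taf6l at 4.46, Taf11 at 4.06, Gtf2b at 3.86 and Taf8 at 3.73 CPM per kb, whose ranges over the libraries overlapped. At the low end were the paralogs best known from testis, Taf7l at 0.302 and Gtf2a1l at 0.267 CPM per kb. The other paralogs were closer to the rest, with 1.69 CPM per kb for Taf9b and 1.42 for Taf4b against 2.47 for Taf4. Reads on Taf4b and Taf4 were nearly equal (median ratio 1.02), over counted lengths of 116 and 63.8 kb. Where along a gene the reads fell was not examined, so this ranking depends on length. Levels varied least between libraries for the TFIID subunit genes Taf3 (CV 13.8%) and Taf2 (15.4%), and most for Taf10 (43.2%), Taf5 (43.0%) and Taf7l (41.1%). Taf10 had 1 to 67 reads a library, Taf5 8 to 268 and Taf7l 2 to 42, so their spread includes that of counting.

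**Figure D1:**
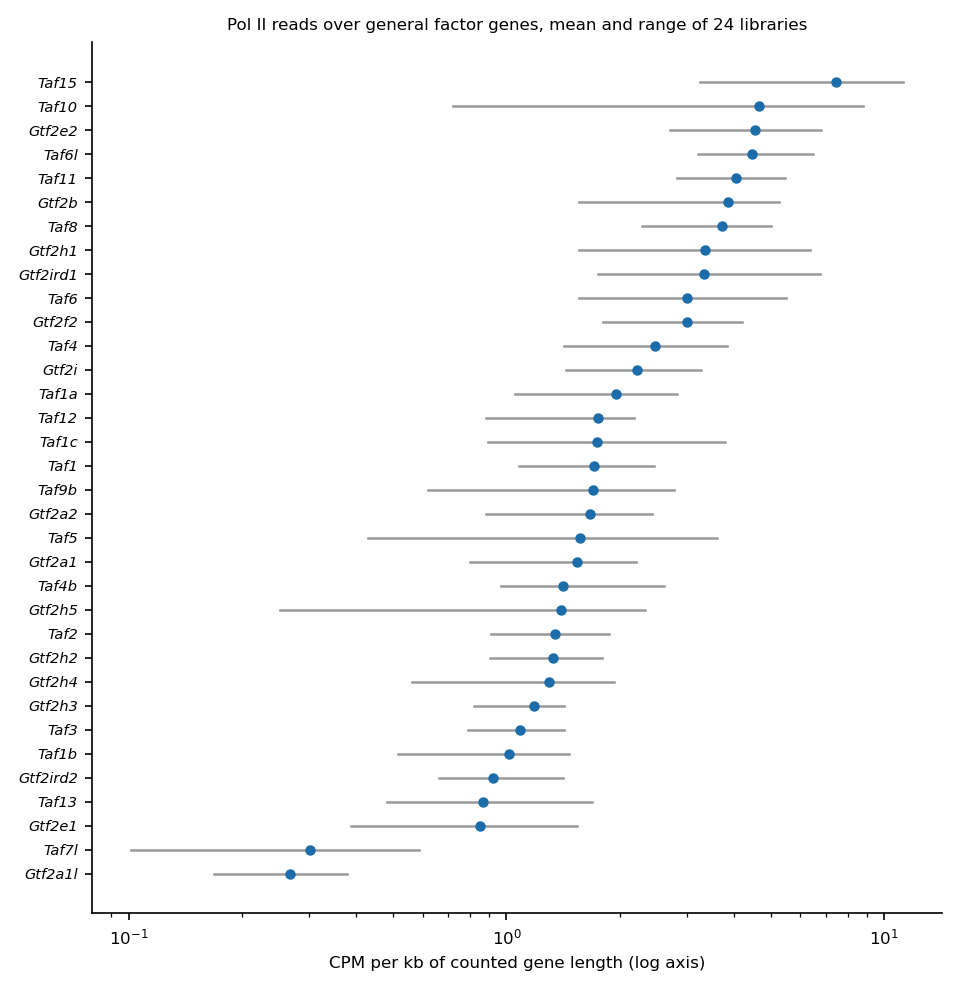
Pol II level of each of the 34 counted genes as CPM per kb of the length that was counted, on a log axis; points are means and lines the range over all 24 libraries. Taf15 stands highest at 7.45 and Gtf2a1l lowest at 0.267 CPM per kb.

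The general factor genes were first compared between C64 cells given IAA for 6 h and untreated cells, and none of them passed the test. Of 33 members tested, 0 were higher and 0 lower at an adjusted p under 0.05, where 0.0% of all 16157 genes tested were higher and 0.0433% lower. The members' median log2 difference was 0.01, against 0.00 for all genes. TMM scaling places most genes near no change, so a shift shared by all genes cannot be seen here or in the other TMM-scaled comparisons. For 32 of the 33, the 95% interval stayed within 2-fold of no change (84.6% of all genes), the exception being the thinly counted Taf10 (-0.02 ± 0.45, SE). At an unadjusted p under 0.05 there were 0 members, against 2.19% of all genes, and DESeq2 and edgeR's likelihood-ratio test called 0 members as well.

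The member with the smallest p was Gtf2a1, which encodes the precursor of the large TFIIA subunits. It had 73.5 and 77.2 CPM with IAA and 69.1 and 48.4 CPM in controls, a log2 difference of 0.36 ± 0.19 (SE, edgeR's quasi-likelihood test, adjusted p = 1). Both IAA values lay above both controls, but the controls were further apart than the higher control was from either IAA library. Taf4, a core subunit of TFIID, had 174 and 190 CPM with IAA and 156 and 151 CPM in controls (0.25 ± 0.14). At the other end was Gtf2a2, the small TFIIA subunit, with 16.1 and 17.1 CPM with IAA and 23.5 and 17.3 CPM in controls (-0.29 ± 0.24). By role, 7 of 11 TFIID TAF genes lay above 0, with a median log2 difference of 0.06, and the 5 TFIIH genes lay between -0.12 and 0.08. The 3 SL1 genes, Taf1a, Taf1b and Taf1c, lay between -0.22 and -0.10, none of them past the test. Members on the TATA list had a median of -0.02 (n = 7), against 0.01 for TATA-less members (n = 25).

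After 16 h of IAA in C64, again 0 of 34 members were higher and 0 lower, as for all 16349 genes tested (0.0% called), and also 0 by DESeq2 and edgeR's likelihood-ratio test. The interval stayed within 2-fold for 27 members, against 69.7% of all genes. Taf9b, whose product replaces TAF9 in a share of TFIID and SAGA, was the single member at an unadjusted p under 0.05 (1.95% of all genes). It had 22.2 and 26.3 CPM with IAA and 39.6 and 39.4 CPM in controls, so both IAA libraries lay below both controls. The log2 difference was -0.69 ± 0.22 (95% interval -1.20 to -0.17, adjusted p = 0.999).

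In run 3 the libraries of one number deviated together, and a fit with the replicate number as a block called 2 members, against 0.734% of all genes higher and 1.43% lower. Taf9b was lower (-0.69 ± 0.19, adjusted p = 0.0186 in edgeR's quasi-likelihood test with the block) and Taf15 higher (0.40 ± 0.11, adjusted p = 0.0204). Taf15 had 353 and 185 CPM in IAA replicates 1 and 2, and 270 and 144 CPM in control replicates 1 and 2, higher with IAA within each number but overlapping between groups. After 6 h of IAA the differences were -0.10 ± 0.24 for Taf9b and 0.04 ± 0.14 for Taf15, neither past the test. Spike-in scaling called no member, with the block or without it. It shifted the median of all genes to -0.26 on the log2 scale and that of the members to -0.29 with the block, but to 0.10 and 0.14, of the opposite sign, without it.

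**Figure D2:**
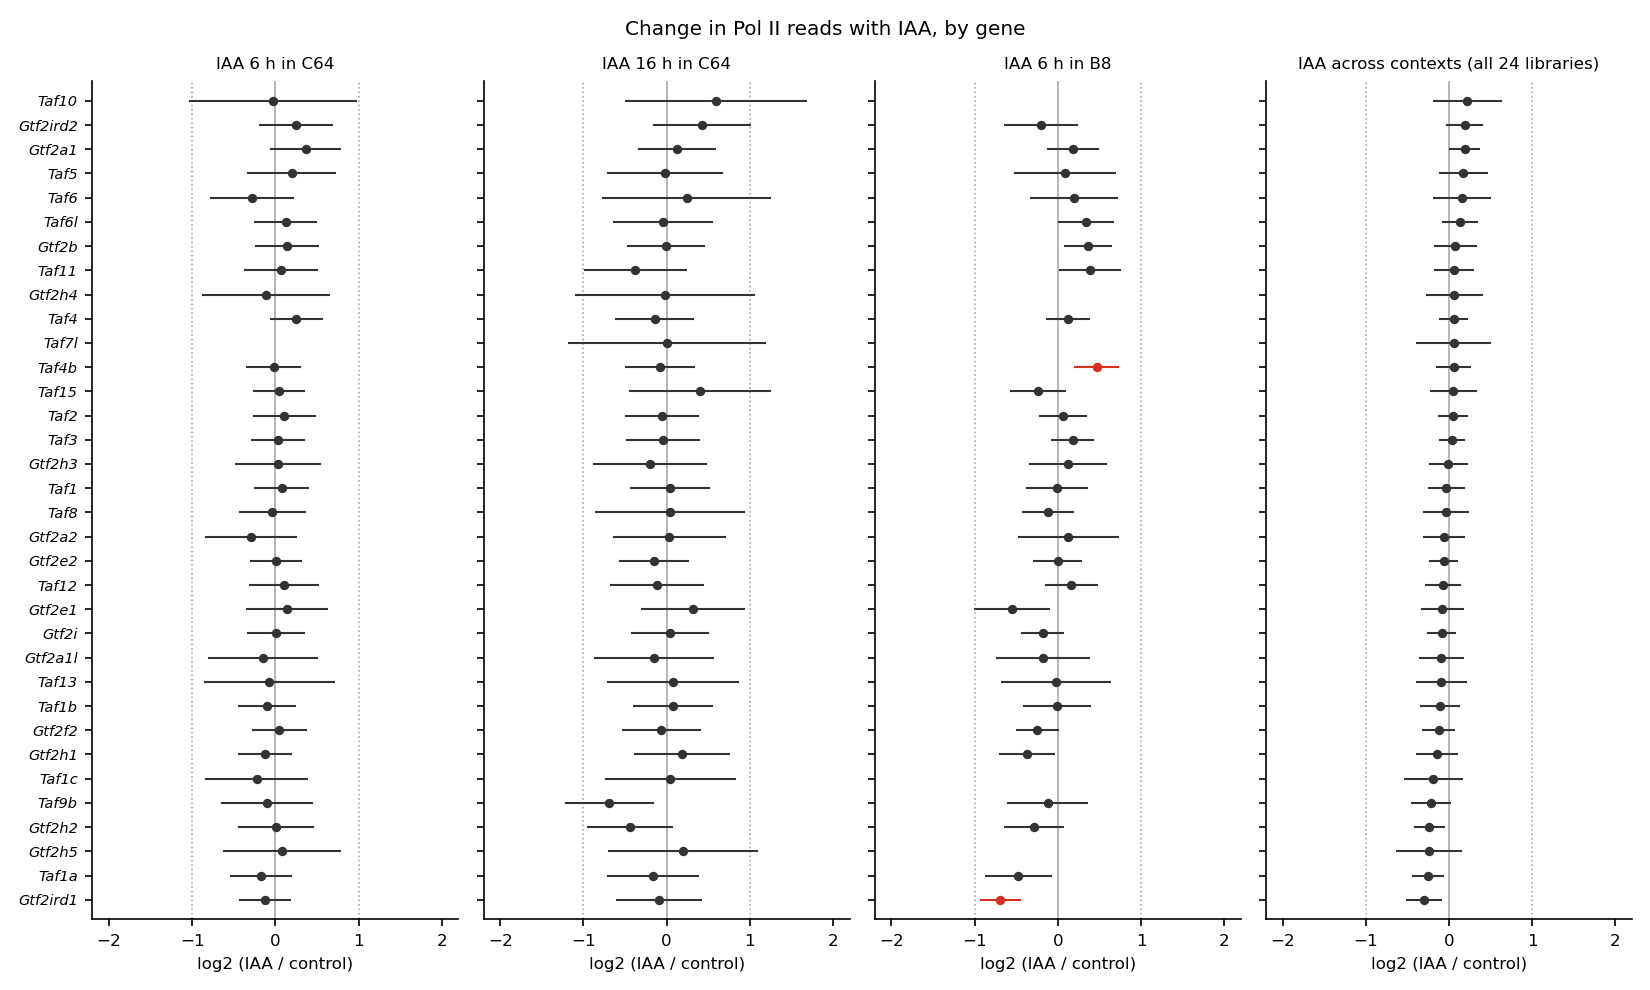
Log2 difference of IAA over control for each gene with its 95% interval, in 4 panels for 6 h in C64, 16 h in C64, 6 h in B8 and the fit over all contexts; dotted lines mark 2-fold and red marks an adjusted p under 0.05. Only Gtf2ird1 (-0.69) and Taf4b (0.47), both in B8, are red.

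In B8, which lacks TRF2, Gtf2ird1 was called lower and Taf4b higher after 6 h of IAA, and no other member passed the test. The Taf4b call depended on the setting, as given below. Of 29 members tested, 1 was higher and 1 lower, against 2.44% of 13219 genes higher and 3.36% lower. Calls among the members were thus about as frequent as among all genes. Before adjustment, 8 members (27.6%) had a p under 0.05, against 20.9% of all genes. All 29 had intervals within 2-fold, against 87.1% of all genes. The filter on low counts had left out the thinly counted Taf7l, Taf10, Taf1c, Gtf2h4 and Gtf2h5, so this says nothing of them. The members' median was -0.01 and that of all genes -0.02 on the log2 scale.

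Gtf2ird1 is a TFII-I family gene, at chr5:134357656-134456716 on mm10, and its human counterpart lies in the interval deleted in Williams-Beuren syndrome. It had 187 and 172 CPM in IAA replicates 1 and 2 of run 6, against 308 and 237 CPM in the controls of that run. In run 8 it had 241 and 262 CPM with IAA, against 444 and 427 CPM in controls. Within each run both IAA libraries lay below both controls, and with run as a block the log2 difference was -0.69 ± 0.11 (95% interval -0.93 to -0.46, 0.620 times the control level, adjusted p = 0.00202). Run 6 alone gave -0.65 (adjusted p = 0.31) and run 8 alone -0.74 (adjusted p = 2.47e-12). Its relatives were not called: Gtf2i, the founding gene of the family, was at -0.18 ± 0.12 and Gtf2ird2 at -0.20 ± 0.20.

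Taf4b, a paralog of Taf4 known for its role in the gonads, had 163 and 177 CPM in IAA replicates 1 and 2 of run 6, against 160 and 123 CPM in controls. In run 8 it had 278 and 302 CPM with IAA, against 185 and 195 CPM in controls. The groups were wide apart in run 8 and close in run 6. The log2 difference over both was 0.47 ± 0.12 (95% interval 0.20 to 0.73, adjusted p = 0.0375), with 0.21 in run 6 alone (adjusted p = 0.696) and 0.67 in run 8 alone (adjusted p = 4.7e-09). The call was lost with a minimum count of 10, with no filter on low counts, and on leaving out any 1 library other than the run 6 controls. It was also lost with the replicate block. Without the run block neither Taf4b nor Gtf2ird1 was called. Taf4 itself was at 0.12 ± 0.12.

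The 6 other members at an unadjusted p under 0.05 went both ways and failed the correction. Above 0 were Gtf2b (0.36 ± 0.13, adjusted p = 0.122), Taf11 (0.39 ± 0.17) and Taf6l (0.34 ± 0.15). Below 0 were Gtf2e1 (-0.55 ± 0.21), the SL1 gene Taf1a (-0.48 ± 0.18) and Gtf2h1, a core TFIIH subunit (-0.37 ± 0.15). Gtf2b, the TFIIB gene, had 97.1, 82.2, 85.1 and 77.3 CPM with IAA, against 64.9, 65.2, 72.2 and 64.6 CPM in controls, and these groups did not overlap. Taf1a had 26.2, 22.4, 42.1 and 33.5 CPM with IAA, against 31.2, 45.5, 47.8 and 51.7 CPM in controls, and these groups overlapped. Without control replicate 2 of run 6, Gtf2b was at 0.35 (adjusted p = 0.0629), Taf11 at 0.38 (adjusted p = 0.157) and Taf1a at -0.35 (adjusted p = 0.183).

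The runs differed in these values. Run 6, which has fewer reads, alone called 0 members and 0.0689% of all genes higher and 0.0775% lower. Run 8 alone called 7 members, Taf4b higher and 6 lower, where 7.54% of all genes were higher and 12.8% lower: Gtf2ird1, Taf15 (-0.52), Gtf2f2 (-0.35), Gtf2i (-0.32), Taf1 (-0.37) and Gtf2e1 (-0.55). Without control replicate 2 of run 6, the library that stood apart, both runs together called 2 members higher, Taf4b and Taf6l (0.43), and 5 lower, Gtf2ird1, Taf15 (-0.41), Gtf2f2 (-0.34), Gtf2h1 (-0.40) and Gtf2e1 (-0.56), where 5.19% of all genes were higher and 9.1% lower. Gtf2f2, the small TFIIF subunit, showed how the runs differed, with 308 and 328 CPM with IAA against 431 and 414 CPM in controls of run 8, and 208 and 207 CPM against 255 and 185 CPM in run 6. The summed ES cell markers were 1258 to 1425 CPM with IAA, against 1820 to 1903 CPM in controls of run 8, and 1121 to 1163 CPM, against 1061 to 1530 CPM in run 6, and of those tested 1 of 4 was lower. The 4 primitive endoderm markers summed to 187 to 192 CPM with IAA, against 145 to 155 CPM in controls of run 8, and 272 to 285 CPM, against 226 to 247 CPM in run 6, with 0 of 4 called. Neuroectoderm markers were at 82.0 to 112 CPM, against 66.6 to 71.5 CPM in run 8, and overlapped in run 6, at 71.8 to 88.0 CPM, against 76.6 to 76.7 CPM. The part of these markers in the members' values was not tested.

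**Figure D3:**
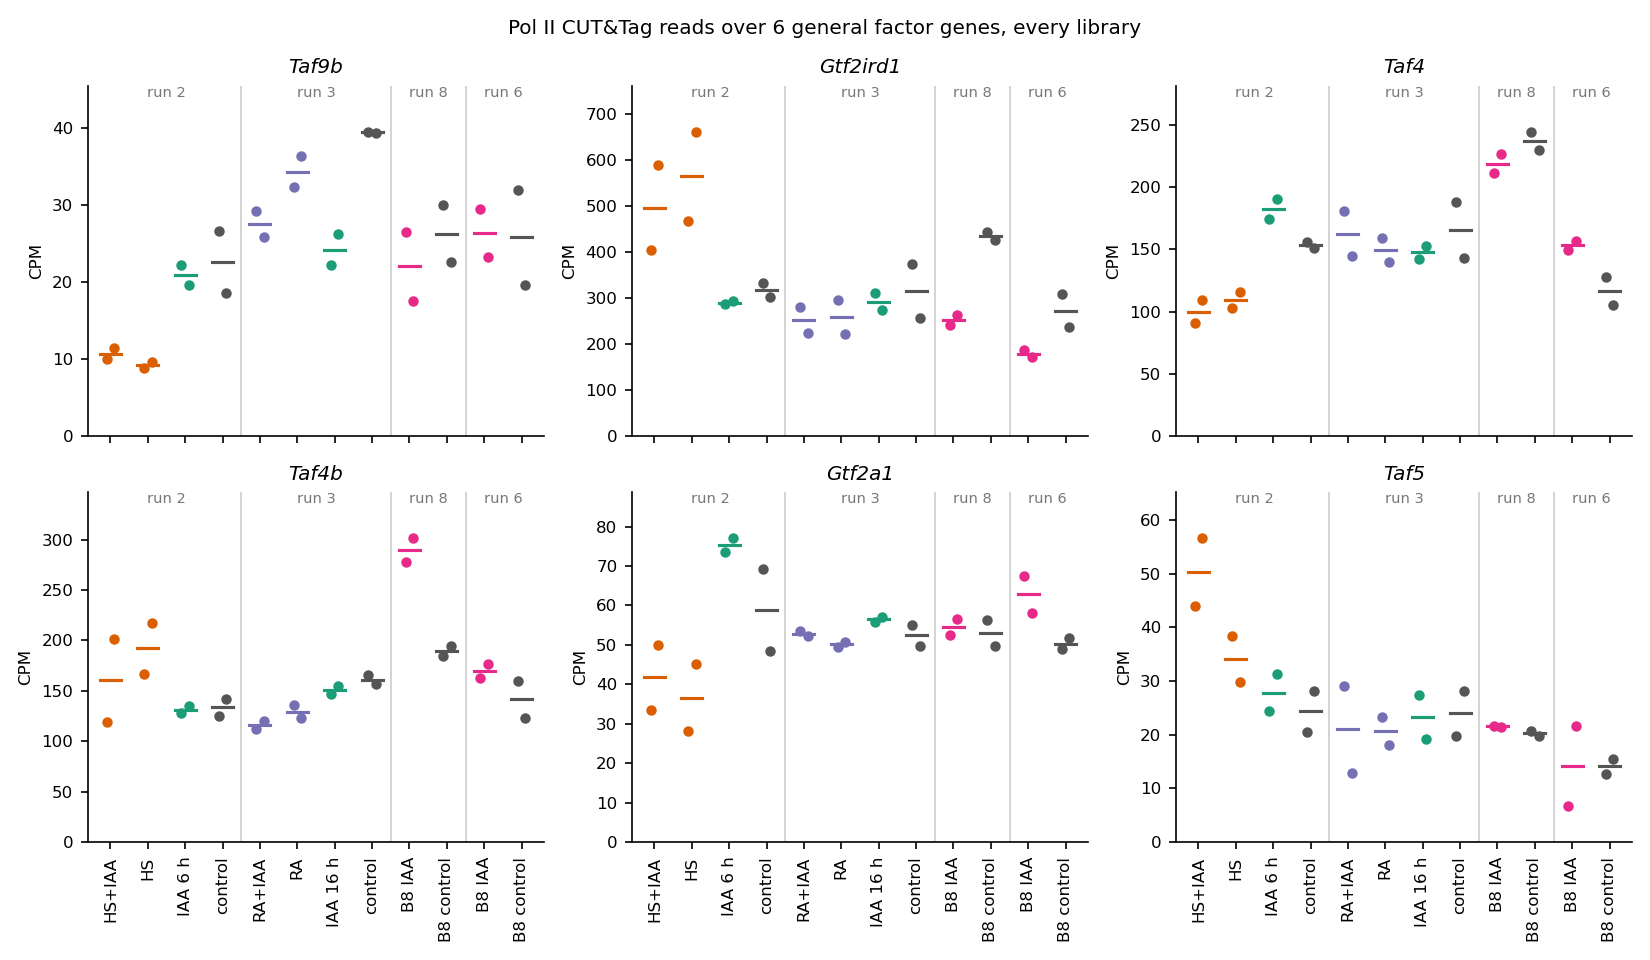
CPM of Taf9b, Gtf2ird1, Taf4, Taf4b, Gtf2a1 and Taf5 in each of the 24 libraries, as points, with bars for the group mean of 2 libraries; treated groups stand left of their controls in each run. Taf9b is at 8.83 to 11.4 CPM in the 4 heat-shocked libraries, below the other libraries, and Gtf2ird1 is lower with IAA than in controls in both B8 runs.

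Untreated B8 cells were also compared with untreated C64 cells of run 2. Of 31 members 0 were higher and 0 lower, as for all 14622 genes (0.0%) in edgeR's quasi-likelihood test, and 23 had intervals within 2-fold, against 61.0% of all genes. The test found 1 member at an unadjusted p under 0.05, Gtf2h1 (-0.48 ± 0.22, adjusted p = 0.828), against 5.9% of all genes, and DESeq2 and edgeR's likelihood-ratio test called 0 members. The B8 controls of run 8 alone called 5 members higher than C64, Taf4 (0.59), Gtf2e2 (0.51), Gtf2e1 (0.84), Gtf2ird1 (0.42) and Taf4b (0.47), and 0 lower, where 3.74% of all genes were higher and 1.49% lower. Those of run 6 alone called 0 members, where 1.6% of all genes were higher and 1.91% lower, with a median of -0.22 for the members, against 0.02 for all genes. Without control replicate 2 of run 6, again 0 members were called, and Gtf2h1 was at -0.39 (adjusted p = 0.478). Cell line and run cannot be told apart here.

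After heat shock in C64, Taf9b was called lower, and no other member passed the test. Of 34 members 0 were higher and 1 lower, against 1.57% of 16332 genes higher and 1.46% lower. Before adjustment, 7 members (20.6%) had a p under 0.05, against 16.0% of all genes. The median member difference was 0.05 and that of all genes 0.03 on the log2 scale, and 22 members had intervals within 2-fold, against 56.1% of all genes.

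Taf9b, at chrX:106206883-106221158 on mm10, had 8.83 and 9.58 CPM in heat-shocked cells, against 26.7 and 18.5 CPM in controls. These were 44 and 45 reads, against 127 and 87. The groups did not overlap, and the log2 difference was -1.28 ± 0.33 (95% interval -1.98 to -0.58, 0.412 times the control level, adjusted p = 0.0448). The call was close to the threshold: without a filter on low counts the adjusted p was 0.0965, without scaling 0.0711, without control library a 0.645 and without control library b 0.0579. DESeq2 gave Taf9b no adjusted p (-1.30, unadjusted p = 0.00167 over all genes fitted) and so did not call it.

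Next in order was Gtf2ird1, with 468 and 662 CPM in heat-shocked cells and 332 and 302 CPM in controls. Both treated libraries were higher, and the difference was 0.84 ± 0.25 (adjusted p = 0.0799, against 0.0298 in DESeq2 and 0.033 without scaling, in each of which it was the only member called). Gtf2a1 had 28.1 and 45.1 CPM after heat shock and 69.1 and 48.4 CPM in controls (-0.67 ± 0.27, adjusted p = 0.219). Within the Taf4 pair the signs were opposed, with 167 and 218 CPM for Taf4b after heat shock, against 125 and 142 CPM in controls (0.54 ± 0.23), and 103 and 116 CPM for Taf4, against 156 and 151 CPM (-0.48 ± 0.22). Gtf2h1 (0.50 ± 0.23) and Gtf2e2 (-0.48 ± 0.23), a TFIIE subunit, were the others at an unadjusted p under 0.05.

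The 2 heat-shocked libraries were not alike. Without library a, Gtf2ird1 (1.06, adjusted p = 3.99e-05), Taf4b (0.70) and Gtf2h1 (0.67) were higher and Taf9b lower, where 3.13% of all genes were higher and 2.4% lower. Without library b, 0 members were higher and Taf9b, Gtf2a1 (-1.08), Gtf2b (-0.84) and Gtf2e2 (-0.73) lower, where 5.73% of all genes were higher and 9.62% lower. Gtf2b had 38.7 and 75.3 CPM in heat-shocked libraries a and b, against 65.2 and 71.8 CPM in controls, low in library a alone. The summed ES cell markers were 2266 to 2379 CPM in heat-shocked cells, against 1260 to 1481 CPM in controls. Of 6 tested, 1 was called higher. Tfcp2l1 rose most, with 1161 and 1184 CPM after heat shock against 477 and 416 CPM, while Nanog and Dppa5a overlapped between groups. Neuroectoderm markers summed to 129 to 176 CPM, against 82.7 to 89.7 CPM in controls, with 1 of 2 tested called higher. The part of both marker sets in the result was not tested.

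Heat shock in cells already given IAA was measured against IAA alone, in libraries that the first heat shock comparison does not use. No member passed the test: of 34, 0 were higher and 0 lower, against 0.698% of 16486 genes higher and 0.704% lower. DESeq2 called 1 member lower, and edgeR's likelihood-ratio test 1 higher and 3 lower. The 7 members with an unadjusted p under 0.05, against 16.6% of all genes, were Taf9b (-0.96 ± 0.29, adjusted p = 0.11), Gtf2h5 (-0.92 ± 0.38), Taf4 (-0.86 ± 0.24, adjusted p = 0.0889), Gtf2a1 (-0.85 ± 0.24), Taf12 (-0.65 ± 0.27), Gtf2ird1 (0.78 ± 0.28, adjusted p = 0.181) and Taf5 (0.86 ± 0.25, adjusted p = 0.0962).

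Taf9b had 10.0 and 11.4 CPM with heat shock and IAA, against 22.3 and 19.7 CPM with IAA alone. Taf4 had 90.4 and 109 CPM, against 174 and 190 CPM, and Gtf2a1 33.6 and 49.9 CPM, against 73.5 and 77.2 CPM. For each of these genes the groups did not overlap, which adds nothing to the test, since they were picked by p in these same libraries. Gtf2ird1 had 405 and 588 CPM with heat shock and IAA, against 287 and 293 CPM with IAA alone. Taf5, whose WD40 domain is part of the TFIID core, had 44.0 and 56.7 CPM, against 24.4 and 31.4 CPM, higher in both libraries. Taf12, a histone-fold subunit of TFIID and SAGA, had 30.8 and 18.8 CPM, against 40.7 and 37.6 CPM. Gtf2h5, the smallest TFIIH subunit, had 6.04 and 4.65 CPM, against 10.5 and 9.95 CPM, at few reads. Here too the treated libraries differed, as in Gtf2b, with 28.7 and 73.2 CPM, against 66.7 and 83.5 CPM. Without library a, Gtf2h1 (0.78), Gtf2ird1 (1.02) and Taf5 (1.02) were higher and Taf12 (-1.06) lower, where 2.11% of all genes were higher and 1.5% lower. Without library b, 0 members were higher and 6 lower, Taf4, Taf9b, Gtf2a1, Gtf2b (-1.39), Gtf2e2 and Taf1b, where 4.81% of all genes were higher and 11.5% lower. The summed ES cell markers were 1791 to 2006 CPM with heat shock and IAA, against 1136 CPM in both IAA libraries. Of 6 tested, 1 was called higher. Tfcp2l1 rose most, with 777 and 1025 CPM against 365 and 369 CPM, while Pou5f1 and Dppa5a overlapped between groups. The part of these markers in the result was not tested.

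The sign of the difference was shared by both heat shock comparisons for 28 of 34 members (16 higher, 12 lower), against 76.7% of the 16096 genes tested in both. In run 2 libraries of the same letter deviated together, with correlations of 0.321 between control and IAA and 0.488 between the heat-shocked groups. The shared signs are thus not those of independent experiments. A fit of heat shock over the 8 libraries of run 2 had IAA as a term and was chosen after seeing the data. It called 2 members higher and 5 lower, against 7.5% of 16593 genes higher and 8.97% lower. The fit counted the 4 heat-shocked libraries as independent and had no block, although those of the same letter deviated together (correlation 0.488). Its p-values may thus be too small. Higher were Gtf2ird1 (0.82 ± 0.15, adjusted p = 0.00327) and Taf5 (0.69 ± 0.18, adjusted p = 0.0181). Lower were Taf9b (-1.11 ± 0.19, adjusted p = 0.00242), Taf4 (-0.67 ± 0.13, adjusted p = 0.00411), Gtf2a1 (-0.76 ± 0.18, adjusted p = 0.0121), Gtf2e2 (-0.48 ± 0.13, adjusted p = 0.0218) and Gtf2i (-0.45 ± 0.12, adjusted p = 0.0229). Gtf2i had 125 and 130 CPM with heat shock and IAA and 121 and 134 CPM with heat shock, against 194 and 159 CPM with IAA and 185 and 166 CPM in controls, so the heat-shocked libraries lay below the others. Gtf2e2 had 110 and 141 CPM with heat shock and IAA and 107 and 142 CPM with heat shock, against 175 to 178 CPM in the other 4 libraries.

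**Figure D4:**
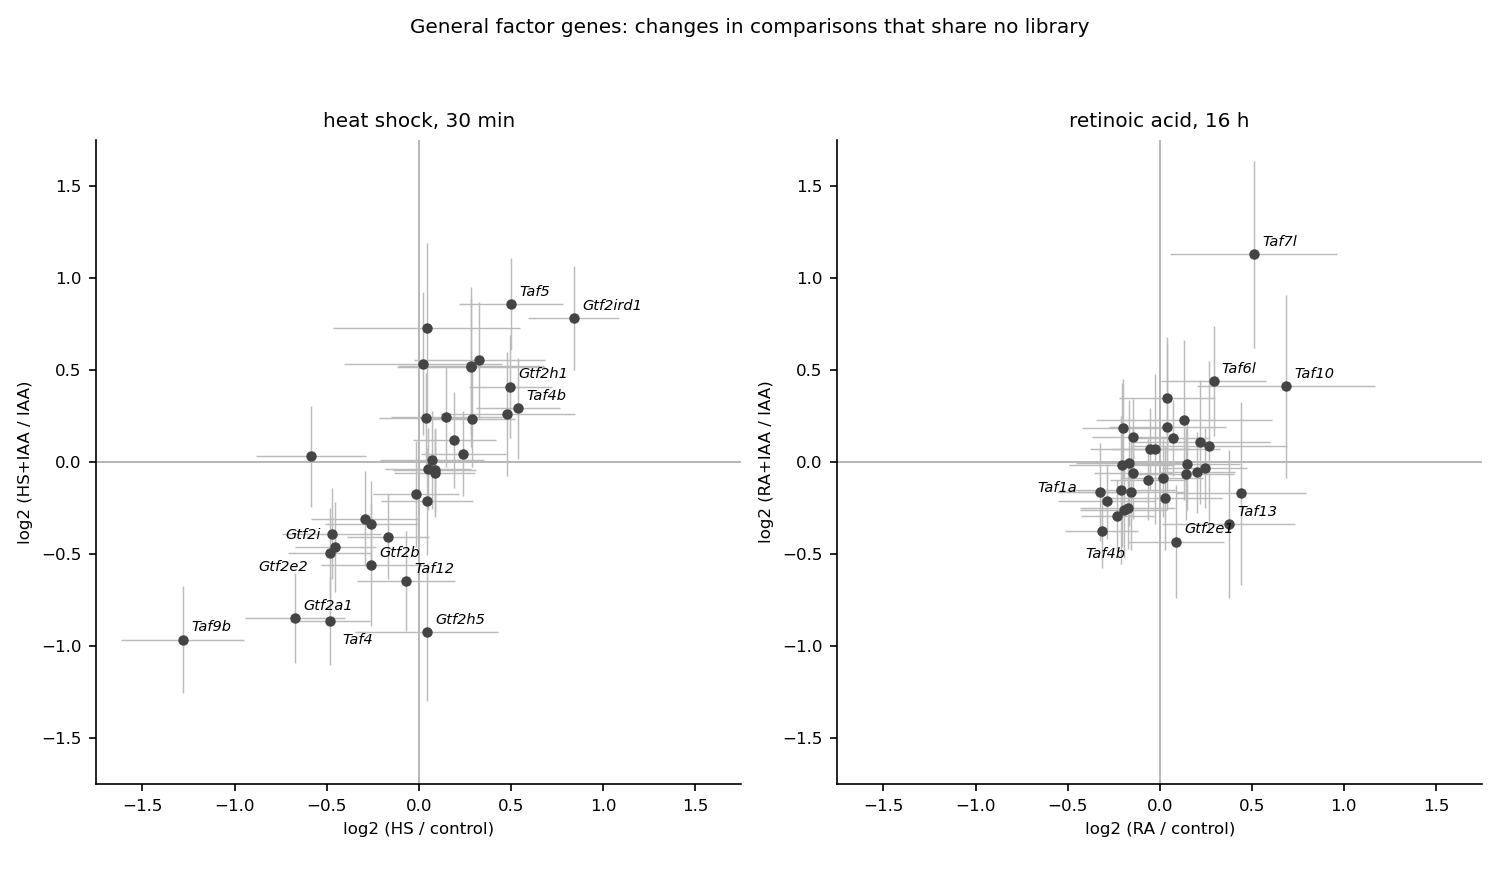
Log2 difference of each gene for the stimulus with IAA over IAA alone (y) against the stimulus over control without IAA (x), with bars of 1 SE, for heat shock and for retinoic acid; the axes of a panel share no library. Both axes of a panel come from the same run. In heat shock Taf9b lies at -1.28 and -0.96 and Gtf2ird1 at 0.84 and 0.78.

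The effect of IAA under heat shock, and the difference between the heat shock effects with IAA and without it, were tested directly. In neither test was any of 34 members called, nor any gene of 16628 and 16961 (0.0% in each). Both also gave 0 members at an unadjusted p under 0.05, against 0.962% and 0.713% of all genes, and 0 by DESeq2 and edgeR's likelihood-ratio test. Under heat shock the smallest p values for IAA were those of Taf5, which had 44.0 and 56.7 CPM with heat shock and IAA, against 38.3 and 29.8 CPM with heat shock (0.58), and Gtf2h5 (-0.86).

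Retinoic acid, which drives ES cells out of pluripotency, was compared with controls of run 3, and no member passed the test. Of 34 members 0 were higher and 0 lower, where 0.0122% of 16350 genes were higher and 0.00612% lower, and at an unadjusted p under 0.05 there were 0 members, against 6.17% of all genes. DESeq2 and edgeR's likelihood-ratio test called 0 members here and with IAA present. The differences ran from -0.33 ± 0.23 for Taf1a to 0.69 ± 0.48 for Taf10, and 27 intervals stayed within 2-fold, against 56.7% of all genes. With the replicate block, still no member was called, where 4.75% of all genes were higher and 6.64% lower. The summed ES cell markers were 490 to 755 CPM with retinoic acid, against 1117 to 1721 CPM in controls, with 0 of 5 tested called. Neuroectoderm markers were lower as well, at 71.1 to 74.5 CPM, against 102 to 112 CPM, with 0 of 2 tested called. The part of both marker sets in these values was not tested. Of the feeder markers, Pdgfrb had 63.5 and 85.3 CPM with retinoic acid, against 18.5 and 26.3 CPM in controls, while the other 4 summed to 23.2 and 37.6 CPM, against 22.3 and 37.4 CPM, and 0 of 4 tested were called.

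With IAA present, retinoic acid likewise gave 0 of 34 members higher and 0 lower, as for all 16395 genes (0.0%). At an unadjusted p under 0.05 there were 0 members, against 3.84% of all genes. The largest difference was that of Taf7l, the testis paralog of Taf7, with 8.47 and 9.59 CPM with retinoic acid and IAA, against 5.34 and 2.84 CPM with IAA alone (1.13 ± 0.51, adjusted p = 1). Without IAA it had 6.22 and 5.64 CPM with retinoic acid, against 3.83 and 4.50 CPM in controls (0.51 ± 0.45). In both cases the groups did not overlap, at levels among the lowest of all members. The sign was shared by both retinoic acid comparisons for 21 of 34 members, against 69.1% of 16032 genes. ES cell markers summed to 409 to 576 CPM with retinoic acid and IAA, against 764 to 1452 CPM with IAA alone, with 0 of 5 tested called. Neuroectoderm markers overlapped, at 75.5 to 77.2 CPM, against 75.0 to 117 CPM, with 0 of 2 tested called. The part of both marker sets was not tested. Pdgfrb had 98.4 and 96.1 CPM, against 30.0 and 27.7 CPM, while the other 4 feeder markers summed to 22.6 and 51.5 CPM, against 30.8 and 36.5 CPM, and 0 of 4 tested were called.

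Over the 8 libraries of run 3, with IAA as a term and the replicate number as a block, a fit chosen after seeing the data called 1 member higher and 3 lower, against 6.23% of 17032 genes higher and 7.26% lower. Taf6l, the SAGA counterpart of Taf6, was higher (0.35 ± 0.11, adjusted p = 0.0318). It had 75.2 and 46.0 CPM in replicates 1 and 2 with retinoic acid and IAA, against 51.6 and 37.4 CPM with IAA, and 69.9 and 44.2 CPM with retinoic acid, against 53.6 and 39.6 CPM in controls. Within each number the retinoic acid library was the higher. Taf4b (-0.35 ± 0.09, adjusted p = 0.00555), Gtf2e2 (-0.26 ± 0.08, adjusted p = 0.0325) and Gtf2ird1 (-0.25 ± 0.08, adjusted p = 0.0392) were lower. Taf4b had 112 and 120 CPM with retinoic acid and IAA, against 146 and 155 CPM with IAA, and 136 and 123 CPM with retinoic acid, against 165 and 157 CPM in controls. Gtf2e2 had 152 and 145 CPM with retinoic acid and IAA, against 172 and 192 CPM with IAA, and 170 and 179 CPM with retinoic acid, against 208 and 201 CPM in controls. Gtf2ird1 had 281 and 223 CPM with retinoic acid and IAA, against 311 and 274 CPM with IAA, and 297 and 221 CPM with retinoic acid, against 374 and 257 CPM in controls. For all 3 of these genes each retinoic acid library lay below its counterpart of the same number. Without the block no member was called, where 0.602% of all genes were higher and 0.843% lower. IAA under retinoic acid and the difference between the retinoic acid effects with IAA and without it called no gene of 16439 and 17032 (0.0%), with 34 members tested in each. Also at an unadjusted p under 0.05 the members numbered 0 in both, against 0.633% and 0.693% of all genes, and DESeq2 and edgeR's likelihood-ratio test called 0.

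Paralogs were also set against each other within a library, as a ratio of reads that needs no scaling between libraries, and these ratios were not tested. Reads on Taf4b per read on Taf4 ran from 0.621 to 1.88 over the 24 libraries, with a median of 1.02. The ratio was 1.32 and 1.85 with heat shock and IAA and 1.63 and 1.88 with heat shock, against 0.732 and 0.709 with IAA and 0.801 and 0.941 in controls. In B8 it was 1.32 and 1.33 with IAA, against 0.756 and 0.847 in controls of run 8, while in run 6 it was 1.09 and 1.13, against 1.25 and 1.17. Reads on Gtf2ird1 per read on Gtf2i ran from 1.31 to 4.94 with a median of 1.80, and the highest was a heat-shocked library. The ratio of Taf6l to Taf6 ran from 1.62 to 3.79, and that of Gtf2a1l to Gtf2a1 from 0.123 to 0.507.

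**Figure D5:**
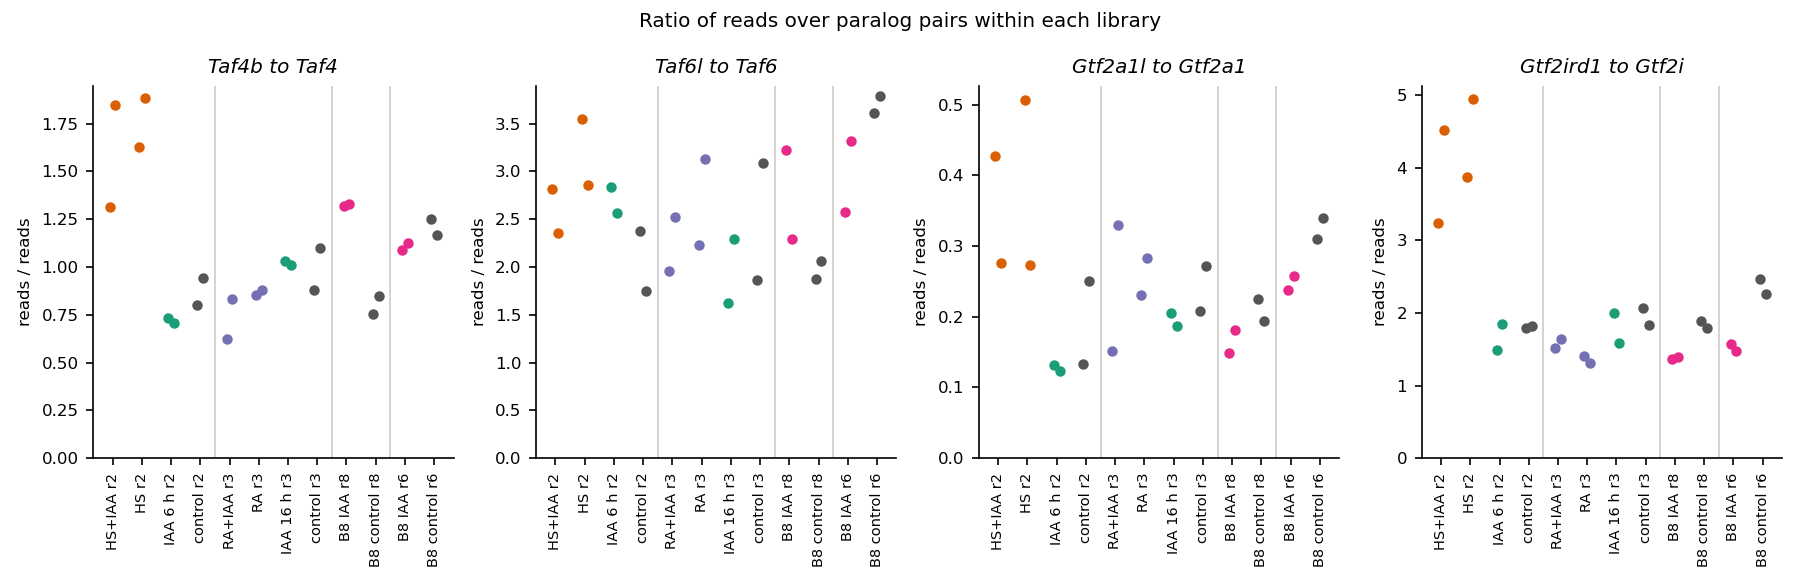
Reads on a paralog divided by reads on its relative in each of the 24 libraries, for Taf4b over Taf4, Taf6l over Taf6, Gtf2a1l over Gtf2a1 and Gtf2ird1 over Gtf2i, with treated groups left of their controls. The Taf4b ratio is 1.32 to 1.88 in the 4 heat-shocked libraries and 0.709 to 0.941 in the other 4 libraries of run 2.

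The difference of the IAA effect between B8 and C64 was tested in one fit, in which 0 of 33 members were called, also by DESeq2 and edgeR's likelihood-ratio test, against 0.0717% of 15338 genes higher and 0.0196% lower. Gtf2ird1 had the smallest p (-0.56 ± 0.19, adjusted p = 0.477). Without control replicate 2 of run 6 it was -0.64 with an adjusted p of 0.0362. Taf4b (0.50) and Gtf2e1 (-0.68) also had an unadjusted p under 0.05, against 7.0% of all genes. The call of Gtf2ird1 and Taf4b in B8 is thus not shown to differ from C64 with all libraries in the fit.

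Over all 24 libraries, with 6 contexts as blocks, IAA moved no member past the test. Of 34 members 0 were higher and 0 lower, against 0.0931% of 17179 genes higher and 0.704% lower, and all 34 intervals stayed within 2-fold, against 98.8% of all genes. At an unadjusted p under 0.05 were Gtf2ird1 (-0.30 ± 0.10, adjusted p = 0.217), Taf1a (-0.25 ± 0.09), Gtf2h2 (-0.24 ± 0.09), a TFIIH subunit, and Gtf2a1 (0.19 ± 0.09), against 10.3% of all genes, and DESeq2 and edgeR's likelihood-ratio test called 0 members. With the library's number or letter as a block within runs 2 and 3, Gtf2ird1 was called lower (-0.29, adjusted p = 0.0431), where 2.26% of all genes were lower. Members on the TATA list had a median log2 difference of -0.04 (n = 7), and TATA-less members one of -0.04 (n = 26). By role the medians were 0.04 for the 11 TFIID TAF genes, -0.15 for the 5 TFIIH genes and -0.19 for the 3 SL1 genes.

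Among other parts of the machinery, 32 genes of Mediator, 14 of SAGA and 5 further TFIIH genes were set beside the members. Called in these lists were only Med1, lower in heat shock (-1.67 ± 0.31, adjusted p = 0.00842) and in heat shock with IAA (-1.81 ± 0.34, adjusted p = 0.0237), and Med26, higher after IAA in B8 (0.51 ± 0.11, adjusted p = 0.0141). Med1, a Mediator subunit that binds nuclear receptors, had 50.4 and 130 CPM after heat shock, against 259 and 317 CPM in controls. The list medians after 6 h of IAA in C64 were -0.02 for Mediator, 0.09 for SAGA and 0.00 for the further TFIIH genes.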

How the data were processed

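Pol II CUT&Tag was measured in mouse ES cells. The authors aligned reads to mm10 with Bowtie2, kept PCR duplicates, subsampled libraries to equal numbers of reads within a run and deposited raw read counts per gene, made with featureCounts 2.0.0 on paired ends over whole genes of Ensembl annotation 102, without strand and without reads that overlap several genes. The other deposited tables used here give aligned mouse and E. coli spike-in reads of run 3 and the authors' TATA and TATA-less gene lists.

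From the counts, edgeR 4.0.16 in R 4.3.3 was run on all genes of a table with TMM scaling, filterByExpr at a minimum count of 20, quasi-likelihood tests and Benjamini-Hochberg adjustment over all genes tested, with a threshold of 0.05. Errors are the standard errors of the log2 difference, and intervals are 95%. Each comparison used its own groups alone, the B8 comparison had run as a block, and interactions were fitted over all groups they need. The fits were tested on simulated data. CPM values used TMM over the 24 libraries, and levels between genes were divided by the length that no other gene overlaps.

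In run 3, libraries of one replicate number deviated together (correlations of 0.403 to 0.617 in all 6 pairs of groups), the spike-in share was 0.508 to 0.582% in replicate 1 and 8.44 to 13.7% in replicate 2, and the deposited normalization scales to the control of the same number, so blocked values stand beside the run 3 results whose calls they change.

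Alternatives were edgeR's likelihood-ratio test, DESeq2 1.42.0, other scalings and filters, each library left out, single runs, spike-in scaling in run 3 and fits of a stimulus over both IAA states. The genes, gene lists and tests were chosen with earlier results of these data known. Values are given in every library for genes that passed a test of a comparison, with a block or without, and for those with the smallest p. For genes picked in this way, groups that do not overlap are no evidence beyond the test. CUT&Tag reads without molecular identifiers are not independent molecules. B8HA libraries were not analysed here, nor were promoters of Taf2, Gtf2e2, Taf4b and Taf7. Figures were drawn with matplotlib 3.10.9.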

Additional observations from a re-analysis of the deposited data

Results flagged for a closer look

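In the B8 groups of 4 libraries, 58 groups were checked for a library far from the others, by its gap to the nearest library as a share of the group's range (Dixon's test at 95%). Its chance rate of about 5% holds for libraries of one kind. Each group here joins libraries of runs 6 and 8, which differ in depth, so that rate need not apply. In all, 3 groups passed. Taf5 in IAA-treated B8 cells had a share of 0.984, with 6.75 CPM in replicate 1 of run 6 against 21.5 to 21.7 CPM in the other 3 libraries. Gtf2b in B8 controls had a share of 0.919, with 72.2 CPM in library a of run 8 against 64.6 to 65.2 CPM in the others. Gtf2h1 in B8 controls had a share of 0.851, with 56.9 CPM in replicate 2 of run 6, the library that stood apart in general, against 81.6 to 86.0 CPM in the others.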

How the results depend on the processing

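Over all comparisons and alternatives, 189 counts of called members stayed within 1.5 times the reported count and 33 did not. Among values of single members, 563 kept their side of the threshold, 65 gained a call and 17 lost one. Of values called in the main fit or the alternative, 0 changed sign, while changes of sign in values called in neither were not counted. After 16 h of IAA the replicate block called 2 members. In heat shock, where 1 was reported, the likelihood-ratio test and the replicate block called 2, no filter on low counts 0, DESeq2 and no scaling each 1 that is Gtf2ird1 and not Taf9b, and heat shock over both IAA states 7. Leaving out 1 library gave 0 to 4, Taf9b being lost without either control. In heat shock with IAA, where 0 were reported, the likelihood-ratio test called 4, DESeq2 1, no scaling 1, no filter 3, and the replicate block 6, and leaving out 1 library gave 0 to 6. Retinoic acid over both IAA states with the block called 4. In B8, where 2 were reported, a minimum count of 10, no filter and the replicate block called 1, run 6 alone and no run block 0, run 8 alone 7, and leaving out 1 library 1 to 7. B8 controls of run 8 alone called 5 against C64. The difference of the IAA effect between lines gave 0 to 1 on leaving out 1 library, and IAA across contexts gave 1 with the replicate block. Where a group was left with 1 library, that library was assumed to vary like the other groups. In run 2, whose columns carry no number, deviations of a and b correlated at 0.098 to 0.488 between groups, and their block called Taf9b (-1.26) and Gtf2ird1 (0.83) in heat shock. In heat shock with IAA it called Gtf2ird1 (0.76) and Taf5 (0.86) higher and Taf4 (-0.87), Taf9b (-0.96), Gtf2b (-0.68) and Gtf2a1 (-0.87) lower, with 628 genes higher and 981 lower in all, against 115 and 116 reported. In runs 6 and 8 same-numbered or same-lettered libraries correlated at -0.036 and 0.006. The block changed no other count of called members. For the difference between lines, a block for each number or letter within a run, chosen after seeing the data, called 0 members, with Gtf2ird1 at -0.56 (adjusted p = 0.461 in edgeR's quasi-likelihood test). No paired analysis was possible for B8 against C64 because these groups share no run.

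Over all genes, no scaling turned the B8 split to 687 higher and 319 lower, against 323 and 444 reported, and moved the median of all genes to 0.08 there and 0.13 in heat shock with IAA. DESeq2 called 171 higher and 261 lower in heat shock with IAA, against 115 and 116. The causes were not tested. Depth limits Taf7l, Taf10, Gtf2h4 and Gtf2h5 in all runs, and run 6 alone left 26 members tested. Spike-in scaling alone called 0 genes in the run 3 comparisons, with 0 at an unadjusted p under 0.05 in each. With the replicate block, a pairing of choices made after seeing the data, it is set here against the block alone. After retinoic acid it called 19 genes higher and 263 lower, against 777 and 1086, with the median of all genes at -0.26. With IAA present it called 120 and 477, against 123 and 175, and for IAA under retinoic acid 28 and 177, against 66 and 105. Neither fit called a member there. Spike-in scaling of run 2 and the B8 runs was not run.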
